A study of Mus musculus with 14 samples.

Results

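Genes of the retinoblastoma pathway that governs entry into S phase were followed across KPY mouse lung adenocarcinomas, as 10 members of a deposited table of 52550 genes. The members were Rb1 and its pocket protein relatives Rbl1 and Rbl2, the transcription factors E2f1 and E2f3, the D-type cyclins Ccnd1, Ccnd2 and Ccnd3, and the G1 kinases Cdk4 and Cdk6. They were found by matching the Ensembl identifiers of the table to these symbols, and all 10 were present. Rb1 was selected on its measured level, which was high in some tumors and low in others of both genotypes, and the others are its relatives and partners. The spread of Rb1 between tumors is therefore how it was chosen and is given below as a description. All 10 passed the filter on low counts that left 16836 genes to test, and the lowest count of any member in any tumor was 114.

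The tumors grew in KPY mice, which carry Trp53 flox/flox with a YFP reporter (LSL-YFP/LSL-YFP) at Rosa26, on a mixed B6J/129S4vJae background after endotracheal delivery of LentiCRISPRv2Cre, a lentivirus that carries Cre, Cas9 and a guide RNA. KPY-Ctrl tumors (n = 6) received a control guide against β-galactosidase (sgBGal) and KPY-Setd2KO tumors (n = 8) received a guide (sgSetd2) against Setd2, the enzyme that trimethylates H3K36. All 14 tumors thus share the loss of p53 and the other alleles of the model, so neither group is normal lung. Per the methods of the study, single tumors were microdissected and digested, and live YFP+ cells were sorted for RNA, whereas the sample labels describe RNA from cell lines. Fewer mice than tumors were used in each genotype and the mouse of each tumor is not given in the labels, so tumors of 1 mouse are counted as separate samples and p-values may be too small. The study gives an upper limit for the age at which tumors were initiated, and the age of each mouse is not given in the sources used here.

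The retinoblastoma protein RB1 and its relatives p107 (Rbl1) and p130 (Rbl2) bind E2F transcription factors and hold the genes for DNA synthesis silent. D-type cyclins, induced by growth signals, activate CDK4 and CDK6, which phosphorylate the pocket proteins and release E2F. Rb1 is a tumor suppressor that is lost in small cell lung cancer and in part of lung adenocarcinoma, and cyclin D1 is amplified in some lung cancers.

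Estimated counts per tumor summed to 27866266 to 51828846 in KPY-Ctrl and 20072236 to 40604404 in KPY-Setd2KO. Levels are in CPM (counts scaled to a common library total) on library sizes scaled by TMM. Setd2 itself was 41.9 to 63.6 CPM (median 53.8) in KPY-Ctrl and 17.9 to 47.4 (median 30.4) in KPY-Setd2KO, overlapping ranges with a log2 difference of -0.74 ± 0.22 (SE, adjusted p = 0.175). The tumors differed strongly in leukocyte RNA. A leukocyte score, the mean log2 CPM of 12 leukocyte genes that include Ptprc (CD45) and Csf1r, ran from 3.92 to 6.04 in 7 tumors (KPY-Ctrl replicates 3, 4 and 5 and KPY-Setd2KO replicates 5 to 8) and from 8.99 to 9.85 in the other 7 (KPY-Ctrl replicates 1, 2 and 6 and KPY-Setd2KO replicates 1 to 4), with a gap of 2.94 between them. Genes of alveolar macrophages summed to 17268 to 63105 CPM above the gap and 254 to 1722 CPM below it, whereas the 11 epithelial markers summed to 6001 to 22477 CPM above and 21745 to 62498 CPM below. Of the T cell list, Cd2 was 222 to 533 CPM above and 2.67 to 24.4 CPM below, while the defining genes Cd3d, Cd3e, Cd3g and Lck were at most 4.34 CPM in every tumor and overlapped between the sides. Sums of the neutrophil (2.17 to 31.3 CPM over all tumors), endothelial (9.69 to 51.5), fibroblast (2.79 to 85.7) and erythroid (62.5 to 752) lists overlapped between the score sets. B cell genes summed to 1.94 to 5.35 CPM above the gap and 5.97 to 15.2 CPM below it, mostly from Cd79b. The mitochondrial genome took 3.50% to 9.10% of counts above the gap and 5.97% to 14.9% below. No marker gene of these lists was at 0 in every tumor. The tumors on the 2 sides of the gap are sets seen in the data and not groups of the study, and no test was made between them. In such bulk RNA a change in the share of a cell type and a change in RNA per cell cannot be told apart.

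The start regions of 3 members are shown because they carry words known for cell cycle and growth control, and because these genes are among those whose levels moved in the comparisons below. RefSeq start windows (GRCm38.p6) were found for 7 of the 10 members, in 9 windows. Rb1, Ccnd1 and Ccnd2 were not among them. The windows of E2f1 and Cdk6 and the second windows of E2f3 and Ccnd3 lie inside the annotated genes and not before their first base. In the 250 bases before each start, an E2F word (TTTCCCGC, TTTCGCGC, TTTGCCGC or TTTGGCGC, either strand) was searched, which 1.86% of 32851 mouse windows of that length hold. It was present in the windows of Rbl1 (18 to 11 bases before the start) and of the upstream start of E2f3 (11 to 4 bases before the start, on the opposite strand). The palindromic E-box CACGTG, the word bound by MYC and its relatives, lies in 6.02% of all windows. In Cdk4 it occurred 4 times, at 172, 118, 98 and 11 bases before the start, and 4 or more copies were found in 0.0213% of all windows (7 windows), a cut set after the count in Cdk4 was seen. Cdk6 and the second E2f3 window held 1 copy each. The macrophage factor PU.1 word GAGGAAGT (2.44% of windows) was in none of the 9 windows, and the SP1 word GGGGCGGGG (10.4%) was in those of Cdk4, the second of E2f3 and both of Ccnd3. The words were chosen with the members known, and a match is a string of letters and not a shown binding site. In each sequence the capitals mark the E2F word (Rbl1, E2f3) or the E-boxes (Cdk4).
Rbl1, chr2:157204535-157204784, minus strand: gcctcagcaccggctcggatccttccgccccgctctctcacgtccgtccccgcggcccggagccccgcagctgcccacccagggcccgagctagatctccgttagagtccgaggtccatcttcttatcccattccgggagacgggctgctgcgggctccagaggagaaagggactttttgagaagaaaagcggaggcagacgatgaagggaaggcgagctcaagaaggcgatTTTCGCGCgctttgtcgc
E2f3, chr13:29986064-29986313, minus strand: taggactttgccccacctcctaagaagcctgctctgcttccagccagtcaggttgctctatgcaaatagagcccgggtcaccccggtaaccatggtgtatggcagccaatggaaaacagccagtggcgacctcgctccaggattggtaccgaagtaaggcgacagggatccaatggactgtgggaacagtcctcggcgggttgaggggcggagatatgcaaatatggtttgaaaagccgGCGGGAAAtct
Cdk4, chr10:127063285-127063534, plus strand: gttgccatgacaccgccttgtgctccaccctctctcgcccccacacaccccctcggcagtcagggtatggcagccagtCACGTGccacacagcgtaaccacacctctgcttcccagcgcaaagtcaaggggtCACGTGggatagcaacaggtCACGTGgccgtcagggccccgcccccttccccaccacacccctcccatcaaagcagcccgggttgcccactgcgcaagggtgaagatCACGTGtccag

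Rb1 (ENSMUSG00000022105.6, chr14:73183673-73325822, minus strand) encodes the retinoblastoma protein. Its level was 8.02 to 70.4 CPM (median 17.4) in KPY-Ctrl and 9.79 to 77.8 CPM (median 39.5) in KPY-Setd2KO. The highest tumor exceeded the lowest 9.71-fold, and both genotypes held high and low tumors. In tumors with a leukocyte score above the gap Rb1 was 68.1, 70.4 and 26.1 CPM in KPY-Ctrl replicates 1, 2 and 6 and 77.8, 67.9, 65.5 and 68.3 CPM in KPY-Setd2KO replicates 1 to 4. Below the gap it was 8.78, 8.72 and 8.02 CPM in KPY-Ctrl replicates 3, 4 and 5 and 13.5, 12.2, 13.2 and 9.79 CPM in KPY-Setd2KO replicates 5 to 8. Every tumor above the gap thus had more Rb1 RNA than every tumor below it, and KPY-Ctrl replicate 6, which had the lowest score of the 7 tumors above the gap, lay between the others. Ptprc ranged over 5.32 to 698 CPM in the same tumors, a far wider span than Rb1. The ratio of Rb1 to Ptprc was accordingly 0.0972 to 0.179 above the gap and 0.347 to 2.54 below it, so Rb1 RNA did not scale in proportion to Ptprc.

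The relatives of Rb1 did not share its pattern equally. Rbl1 (p107, ENSMUSG00000027641.13, chr2:157145893-157204534), itself a classic E2F target gene, was 18.5 to 48.5 CPM (median 27.0) in KPY-Ctrl and 14.2 to 46.1 CPM (median 27.5) in KPY-Setd2KO. It was 30.7 to 48.5 CPM in the 7 tumors above the gap and 14.2 to 23.2 CPM in the 7 below, without overlap. Of all genes, 13.6% were likewise higher above the gap without overlap. Rbl2 (p130, ENSMUSG00000031666.15, chr8:91070057-91123844), the pocket protein of resting cells, was 21.9 to 29.4 CPM (median 28.3) in KPY-Ctrl and 16.1 to 35.3 CPM (median 25.3) in KPY-Setd2KO, and its values above (21.9 to 35.3 CPM) and below (16.1 to 29.5 CPM) the gap overlapped widely.

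To compare genes with each other, CPM was divided by the length of the union of exons in kilobases. On that scale Rb1 made up 34.5% to 57.9% of the summed pocket protein level above the gap and 14.7% to 27.5% below it. The share of Rbl2 was 13.7% to 24.6% above and 33.8% to 47.0% below, and that of Rbl1 overlapped (27.3% to 40.8% above, 28.6% to 42.7% below). Rb1 was thus the largest of the 3 in 6 of the 7 tumors above the gap and the smallest in all 7 below it. These shares rest on 1 length per gene.

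**Figure D1:**
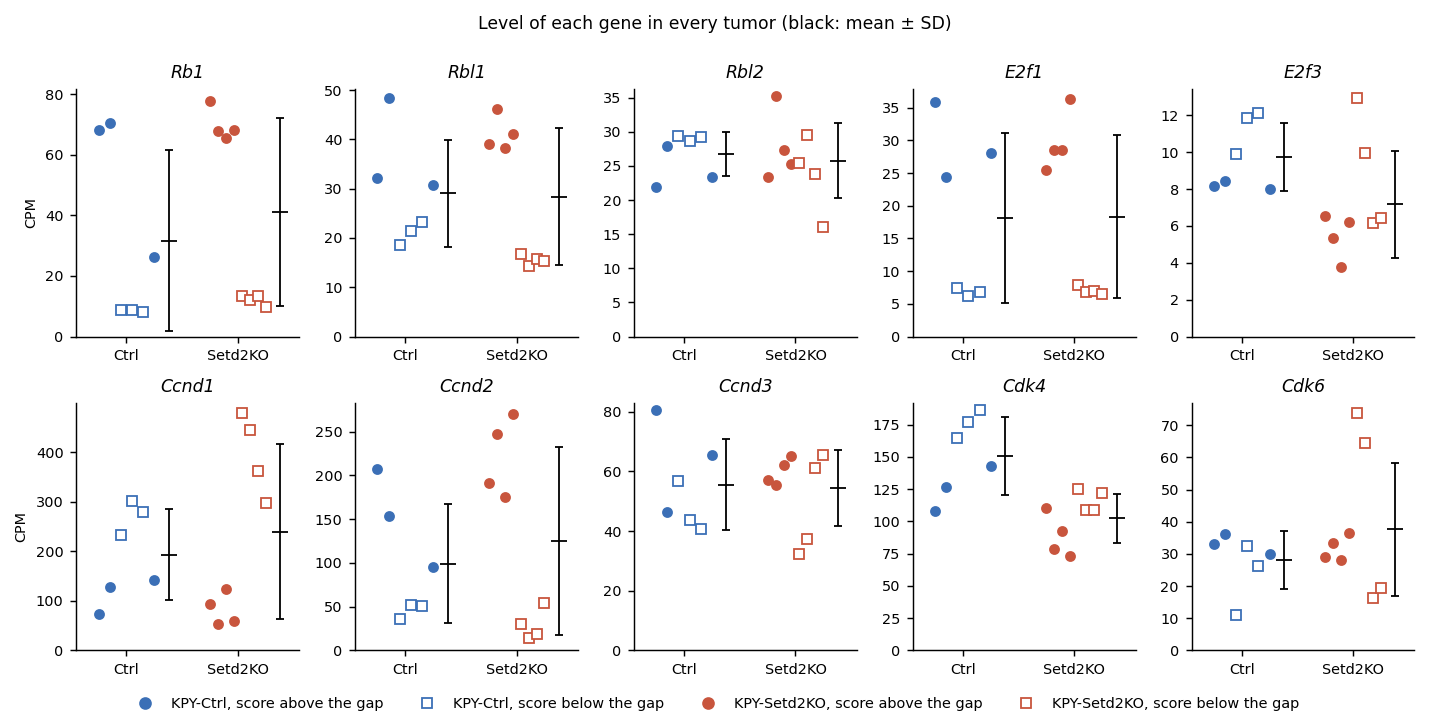
Level of each of the 10 genes (CPM, linear axis from 0) in every KPY-Ctrl and KPY-Setd2KO tumor, with filled circles for tumors with leukocyte scores above the gap, open squares for those below, and black bars for the mean and SD of each genotype. Rb1 and E2f1 split within both genotypes, with Rb1 from 26.1 to 77.8 CPM above the gap and from 8.02 to 13.5 CPM below it.

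Of the E2F factors, E2f1 (ENSMUSG00000027490.17, chr2:154559407-154569892), an activator of S phase genes that is itself released by RB1 phosphorylation, was 6.16 to 35.9 CPM (median 15.9) in KPY-Ctrl and 6.46 to 36.3 CPM (median 16.7) in KPY-Setd2KO. It was 24.3 to 36.3 CPM above the gap and 6.16 to 7.94 CPM below it. E2f3 (ENSMUSG00000016477.18, chr13:29906575-29986063), a second activator E2F, was 8.02 to 12.1 CPM (median 9.17) in KPY-Ctrl and 3.76 to 12.96 CPM (median 6.33) in KPY-Setd2KO. Its values were 3.76 to 8.44 CPM above the gap and 6.17 to 12.96 CPM below, so the sets overlapped and lay in the opposite order to E2f1.

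The D-type cyclins went in opposite directions. Ccnd1 (cyclin D1, ENSMUSG00000070348.5, chr7:144929931-144939925), the D-type cyclin of epithelial cells, was 73.5 to 301 CPM (median 188) in KPY-Ctrl and 53.7 to 478 CPM (median 211) in KPY-Setd2KO. It was 53.7 to 143 CPM above the gap and 233 to 478 CPM below. Ccnd2 (cyclin D2, ENSMUSG00000000184.12, chr6:127125162-127152193), which blood cells also use, was 36.3 to 207 CPM (median 73.8) in KPY-Ctrl and 14.04 to 270 CPM (median 114) in KPY-Setd2KO. It was 95.6 to 270 CPM above the gap and 14.04 to 53.9 CPM below, and its 19.2-fold span was the widest of the 10. Neither cyclin overlapped between the sets. Of all genes, 13.6% were higher above the gap without overlap, as Ccnd2 was, and 9.35% were lower, as Ccnd1 was. Ccnd3 (cyclin D3, ENSMUSG00000034165.16, chr17:47505051-47599691), prominent in lymphoid and differentiating cells, was 40.6 to 80.5 CPM (median 51.5) in KPY-Ctrl and 32.4 to 65.3 CPM (median 59.1) in KPY-Setd2KO, and the sets overlapped (46.3 to 80.5 CPM above, 32.4 to 65.3 CPM below).

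The ratio of Ccnd1 to Ccnd2 CPM was 0.218 to 1.49 above the gap and 5.51 to 31.7 below it. Per kilobase, Ccnd1 made up 82.7% to 94.3% of the D-type cyclin level in every tumor below the gap and 25.8% to 63.2% above it. Ccnd2 held 1.5% to 7.7% below and 21.2% to 59.7% above, and in KPY-Ctrl replicate 1 and KPY-Setd2KO replicates 1, 2 and 4 it was the most abundant D-type cyclin. Ccnd3 held 3.4% to 10.8% below and 10.9% to 19.6% above. With the longest transcript as the length, its ranges overlapped (5.9% to 17.8% below, 17.1% to 28.5% above).

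**Figure D2:**
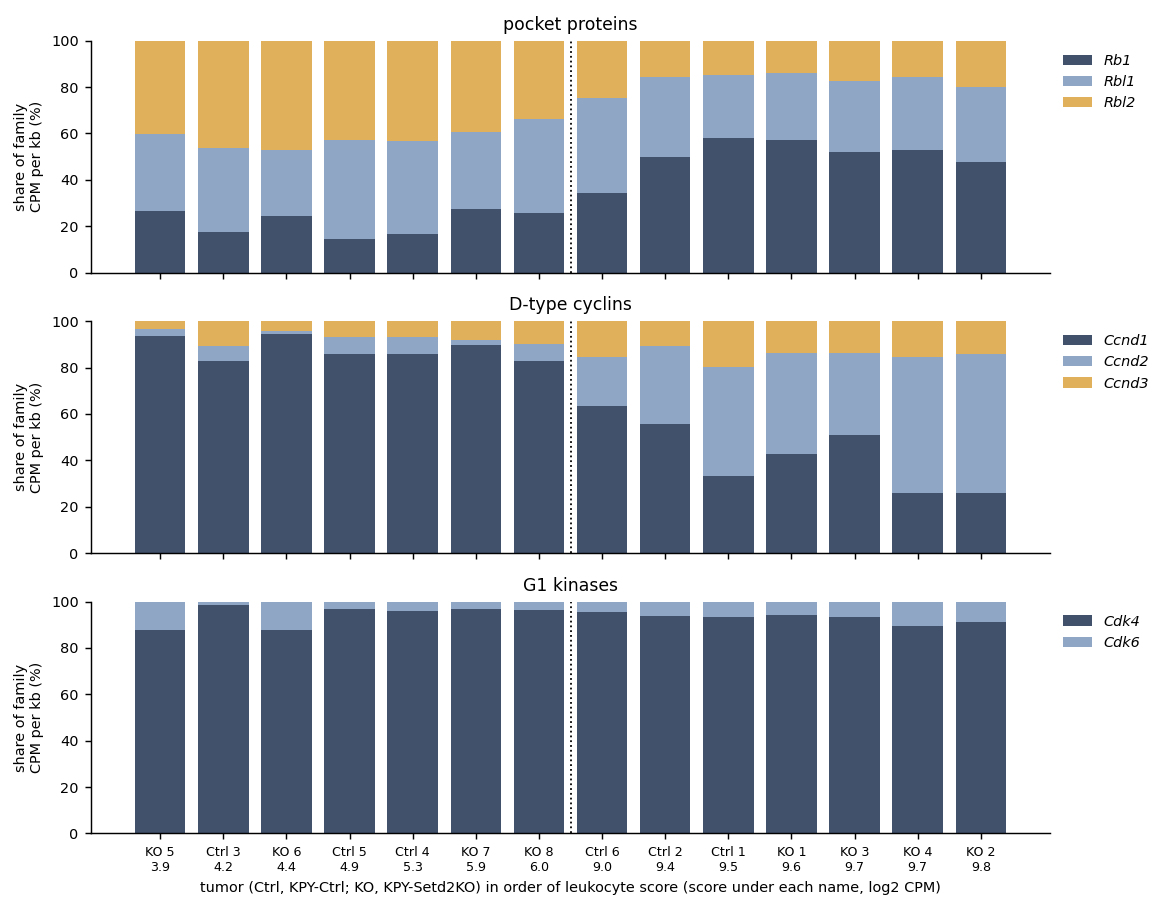
Share of each gene in the summed CPM per kilobase of its family (%, bars sum to 100) in each tumor, in order of leukocyte score from left to right, with the dotted line at the gap. Left of the line Ccnd1 holds 82.7% to 94.3% of the D-type cyclins and Rb1 at most 27.5% of the pocket proteins, and Cdk4 holds most of the kinase level on both sides.

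Of the G1 kinases, Cdk4 (ENSMUSG00000006728.12, chr10:127063534-127067920) was 108 to 186 CPM (median 154) in KPY-Ctrl and 73.0 to 125 CPM (median 109) in KPY-Setd2KO. Of the 6 KPY-Ctrl tumors 5 exceeded all 8 KPY-Setd2KO tumors, and KPY-Ctrl replicate 1, at 108 CPM, lay among them. Cdk6 (ENSMUSG00000040274.11, chr5:3341485-3531008), the kinase favored in blood cells, was 11.1 to 36.2 CPM (median 31.3) in KPY-Ctrl and 16.4 to 73.8 CPM (median 31.2) in KPY-Setd2KO. Its values were even above the gap (28.2 to 36.6 CPM) and scattered below it, from 11.1 CPM in KPY-Ctrl replicate 3 to 64.6 and 73.8 CPM in KPY-Setd2KO replicates 6 and 5. Per kilobase Cdk4 made up 87.8% to 98.5% of the summed kinase level in every tumor.

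By median CPM per kilobase, the order in KPY-Ctrl was Cdk4 (47.3), Ccnd1 (39.9), Ccnd2 (7.84), Ccnd3 (5.87), E2f1 (5.04), Rbl1 (4.50), Rbl2 (3.74), Rb1 (2.90), Cdk6 (2.23) and E2f3 (1.69). In KPY-Setd2KO it was Ccnd1 (44.8), Cdk4 (33.4), Ccnd2 (12.2), Ccnd3 (6.73), Rb1 (6.57), E2f1 (5.29), Rbl1 (4.59), Rbl2 (3.35), Cdk6 (2.23) and E2f3 (1.17). Among neighbors in these orders, Cdk6 exceeded E2f3 in 8 of 8 KPY-Setd2KO tumors and every other pair changed order between tumors of the same genotype. The place of Rb1 thus rests on genes whose values cross between tumors. The order also depends on the length used. With the longest transcript, Ccnd3 (13.3) stood above Ccnd2 (11.7) and Rbl2 (5.74) above Rbl1 (5.55) in KPY-Ctrl, and the KPY-Setd2KO order stayed.

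The first comparison asked whether loss of Setd2 altered these genes. Rb1 is left out of its counts, because it was chosen for being high and low in both genotypes. With edgeR's quasi-likelihood test, 0 of the 9 other members passed an adjusted p of 0.05, as did 0% of the 16836 genes. The genotypes overlapped in all 9, and 0.57% of all genes had genotypes that did not overlap. At an unadjusted p under 0.05 there were 2311 genes and 1 member, and DESeq2 called 770 genes and the same member, Cdk4. The Cdk4 mean was 151 ± 30.3 CPM in the 6 KPY-Ctrl tumors (SD, n = 6) against 102 ± 19.1 CPM in the 8 KPY-Setd2KO tumors (SD, n = 8), a log2 difference of -0.56 ± 0.17 (SE) with an adjusted p of 0.175 by edgeR and 0.0369 by DESeq2. E2f3 was next, with 9.75 ± 1.86 CPM against 7.17 ± 2.90 CPM and a log2 difference of -0.44 ± 0.25 (adjusted p = 0.478). Rb1 was 31.7 ± 29.9 CPM in KPY-Ctrl and 41.0 ± 31.1 CPM in KPY-Setd2KO, a log2 difference of 0.37 ± 0.68 (SE). The remaining 7 members lay between -0.05 (Rbl2) and 0.42 (Cdk6) with adjusted p from 0.671 to 0.993. The median log2 difference was -0.0046 over the 10 members and 0.03 over all genes. With SEs of up to 0.68 for Rb1 and Ccnd2, a log2 difference of 1 in either gene would be less than 2 SE in this comparison.

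The second comparison related each member to the leukocyte genes, as the log2 change in the member per unit of leukocyte score with genotype in the fit. Over all 14 tumors Rb1 changed by 0.52 ± 0.05 (SE) per unit, a value given without a p because Rb1 was chosen for varying between these tumors. Of the 9 other members, 4 rose with the score and 3 fell, against 28.6% of all genes that rose and 28.8% that fell. Ccnd2 rose by 0.52 ± 0.06 (adjusted p = 8.93e-06), E2f1 by 0.42 ± 0.04 (adjusted p = 9.74e-07), Rbl1 by 0.24 ± 0.03 (adjusted p = 1.46e-05) and Ccnd3 by 0.09 ± 0.03 (adjusted p = 0.0313). Ccnd1 fell by 0.40 ± 0.05 per unit (adjusted p = 1.39e-05), E2f3 by 0.14 ± 0.04 (adjusted p = 0.00349) and Cdk4 by 0.09 ± 0.02 (adjusted p = 0.00434). Rbl2 (-0.0032 ± 0.03, adjusted p = 0.938) and Cdk6 (-0.04 ± 0.07, adjusted p = 0.605) did not pass. The Ccnd3 call was lost in 6 of the 14 fits that left out 1 tumor (without KPY-Ctrl replicate 1, 4 or 5 or KPY-Setd2KO replicate 4, 5 or 6, adjusted p up to 0.129).

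The slopes rest on tumors on both sides of the gap. With a term for the side of the gap added to the fit, an alternative chosen after the scores were seen, 0 of the 9 members other than Rb1 and 2.38% of all genes were called. At an unadjusted p under 0.05 there were 3 members and 2152 of the 16836 genes. The 3 were E2f3 (-0.36 ± 0.14 per unit, adjusted p = 0.277), Ccnd3 (0.32 ± 0.14, adjusted p = 0.319) and Cdk6 (-0.72 ± 0.26, adjusted p = 0.219), whose slopes were larger in size than without the term. The slopes of Ccnd2 (0.43 ± 0.27, adjusted p = 0.548) and Ccnd1 (-0.29 ± 0.20, adjusted p = 0.610) stayed near their earlier values with wider errors. Those of Rb1 (-0.01 ± 0.17), E2f1 (-0.09 ± 0.11), Rbl1 (0.07 ± 0.13) and Cdk4 (-0.04 ± 0.10) were nearer to 0 than without the term or of the opposite sign. Ptprc and Csf1r, which are part of the score, had slopes of 1.15 ± 0.14 and 1.16 ± 0.12. Between the sides, 4 of the 9 members other than Rb1 did not overlap. Rbl1, E2f1 and Ccnd2 were higher above the gap, as were 13.6% of all genes without overlap, and Ccnd1 was lower, as were 9.35%. Of the levels given above, the macrophage sums parted at the same gap. The epithelial sums and the mitochondrial percentages ran lower above it, with ranges that overlapped between the sides. The part of the macrophage, epithelial and mitochondrial levels in these differences was not tested.

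**Figure D3:**
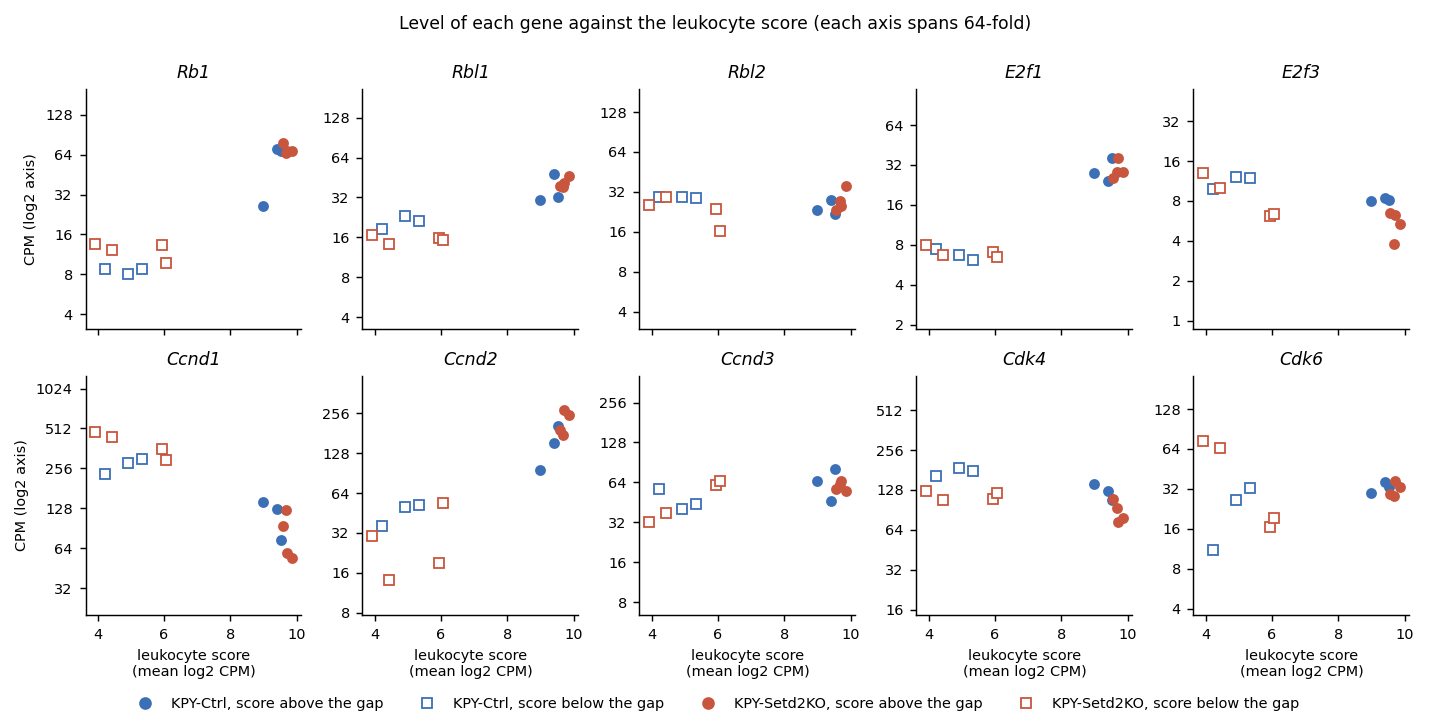
Level of each gene (CPM, log2 axis, equal span in all panels) against the leukocyte score (mean log2 CPM of 12 genes), 1 point per tumor, colored by genotype, with open squares below the gap. Rb1, Rbl1, E2f1 and Ccnd2 lie higher on the right of the gap and Ccnd1 lower, while Rbl2 is level and Cdk6 spreads most on the left.

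The third comparison set the genotypes against each other at equal leukocyte score, which lowered the common dispersion from 0.41 to 0.178. Of the 9 members other than Rb1 1 was called, Cdk4, which was lower in KPY-Setd2KO by a log2 difference of -0.52 ± 0.11 (SE, adjusted p = 0.0201), against 2.58% of all genes called lower and 3.34% called higher. Setd2 differed by -0.83 ± 0.19 (adjusted p = 0.0252) in the same fit. The Cdk4 call was narrowly lost without KPY-Ctrl replicate 4 (adjusted p = 0.0512) and lost with the replicate number as a block (adjusted p = 0.139), and the difference stayed between -0.58 and -0.49 over the 14 fits that left out 1 tumor. E2f3 differed by -0.44 ± 0.17 (adjusted p = 0.127) and Rb1 by 0.32 ± 0.24 (SE). The other 7 members had adjusted p from 0.412 to 0.871. The median over the members was -0.07 and over all genes -0.01.

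The genotypes were also compared on each side of the gap, in a fit with 4 groups added after the scores were seen. Of the 3 KPY-Ctrl tumors below the gap, replicates 4 and 5 were more alike than any other pair of tumors of 1 genotype. Whether they came from 1 mouse is not given, so p-values below the gap may be too small. Below the gap Cdk4 was 164, 177 and 186 CPM in KPY-Ctrl replicates 3, 4 and 5 and 125, 108, 109 and 122 CPM in KPY-Setd2KO replicates 5 to 8. The log2 difference was -0.60 ± 0.16 (SE, adjusted p = 0.0377), and Cdk4 was the 1 member called among these tumors, where 3.75% of genes were lower and 4.87% higher in KPY-Setd2KO. Above the gap Cdk4 was 108, 127 and 143 CPM in KPY-Ctrl replicates 1, 2 and 6 and 110, 78.5, 92.7 and 73.0 CPM in KPY-Setd2KO replicates 1 to 4, overlapping in replicate 1 of each. The difference there was -0.51 ± 0.16 (adjusted p = 0.187), with 0 members and 0.00594% of genes (1 gene) called. At an unadjusted p under 0.05 there were 2616 genes and 2 members above the gap, Cdk4 and E2f3 (-0.59 ± 0.27, adjusted p = 0.319). Setd2 differed by -1.26 ± 0.21 (adjusted p = 0.00778) below the gap and by -0.33 ± 0.21 (adjusted p = 0.469) above it.

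Below the gap the Rb1 mean was 8.51 ± 0.424 CPM over 3 KPY-Ctrl tumors (SD, n = 3) against 12.2 ± 1.70 CPM over 4 KPY-Setd2KO tumors (SD, n = 4). The log2 difference was 0.52 ± 0.27 (SE), again given without a p because of how Rb1 was chosen. Rbl1 went the other way there, at 21.0 ± 2.37 CPM in KPY-Ctrl and 15.5 ± 1.01 CPM in KPY-Setd2KO, and did not pass (-0.44 ± 0.17, adjusted p = 0.108). Ccnd1 was 271 ± 34.8 CPM and 395 ± 81.9 CPM below the gap (0.54 ± 0.30, adjusted p = 0.266), whereas above it the values were 114 ± 36.2 CPM and 83.0 ± 33.2 CPM (-0.46 ± 0.30, adjusted p = 0.480). A test of the difference itself, the interaction of genotype with the score, called 0 of the 9 members other than Rb1 and 0.344% of all genes. At an unadjusted p under 0.05 there were 1909 genes and 2 members in that test, Ccnd1 (-0.20 ± 0.09 per unit, adjusted p = 0.432) and Cdk6 (-0.29 ± 0.13, adjusted p = 0.419).

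**Figure D4:**
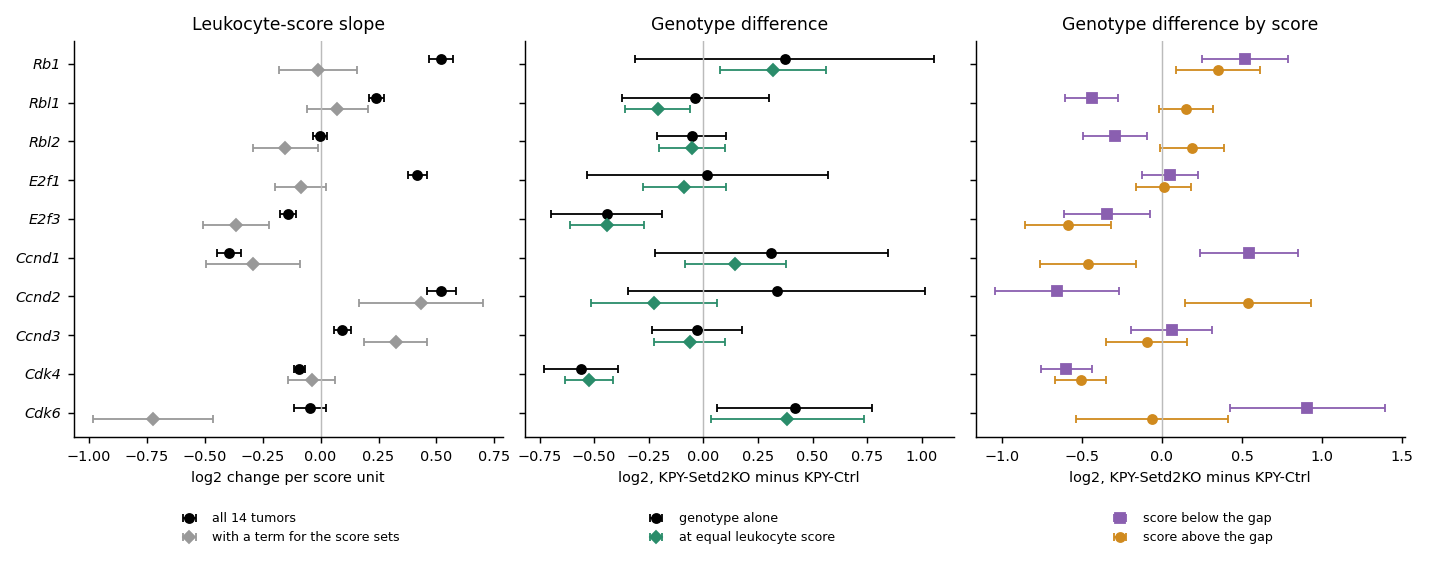
Estimates for each gene with bars of 1 SE, as log2 change per unit of leukocyte score (left), log2 difference KPY-Setd2KO minus KPY-Ctrl alone and at equal score (middle), and the same difference below and above the score gap (right). With a term for the score sets the slopes of Rb1 and E2f1 are -0.01 and -0.09 and those of Ccnd2 and Ccnd1 are 0.43 and -0.29 with wider bars, and Cdk4 lies between -0.51 and -0.60 in all 4 genotype estimates.

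The genes around the members were examined by lists. By genotype edgeR called 0 of their 46 genes, as it did 0% of all 16836. An unadjusted p under 0.05 was found for 4 of the 46 and for 2311 of all genes. DESeq2 called 1 of the 46, the E2F target Mcm2, and 770 of all genes. The lists are read against the 28.6% of all genes that rose with the leukocyte score and the 28.8% that fell. Of 7 CDK inhibitors, 3 rose with it and 4 fell. The INK4 gene Cdkn2d rose by 0.34 ± 0.05 per unit (adjusted p = 3.30e-05) and its relative Cdkn2b fell by 0.35 ± 0.07 (adjusted p = 4.08e-04). Cdkn1c (p57) and Cdkn2a (which encodes p16 and p19ARF) had the smallest p by genotype, with 22.8 ± 26.3 CPM against 10.04 ± 8.21 CPM and an adjusted p of 0.448, and 117 ± 46.0 CPM against 72.7 ± 46.3 CPM and an adjusted p of 0.495.

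Of the 8 other E2F and DP factors 2 rose with the score, E2f2 (0.26 ± 0.06 per unit, adjusted p = 0.00110) and E2f7, a repressor E2F (0.17 ± 0.05, adjusted p = 0.00583). With a term for the score sets, 1 of the 46 genes of the 5 lists was called, against 2.38% of all genes. This was E2f2, named after its value was seen (0.80 ± 0.19 per unit, adjusted p = 0.0445). The dimer partners Tfdp1 and Tfdp2 had the smallest p by genotype, at -0.35 ± 0.13 (adjusted p = 0.251) and -0.46 ± 0.19 (adjusted p = 0.311). The MuvB core binds pocket proteins in resting cells and, with B-Myb, activates mitotic genes in cycling ones. Of 6 genes of the MuvB core and B-Myb, 2 rose with the score, Lin54 (0.26 ± 0.04) and Lin52 (0.16 ± 0.04, adjusted p = 0.00389). Mybl2 (-0.37 ± 0.24, adjusted p = 0.541) and Lin9 (-0.23 ± 0.17, adjusted p = 0.591) had the smallest p by genotype. In the CDK-activating kinase, which phosphorylates CDK4 and CDK6, Ccnh (0.15 ± 0.03) and Mnat1 (0.11 ± 0.03, adjusted p = 0.0164) rose with the score and Cdk7 fell by 0.13 ± 0.02 per unit.

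Of 22 E2F target genes of G1 and S phase 13 rose with the score (28.6% of all genes), 0 fell (28.8% of all genes) and 9 did not pass, with a median of 0.10 per unit against -0.01 over all genes. Pcna (0.22 ± 0.03) and Rrm2 (0.26 ± 0.04, adjusted p = 2.80e-05) had the smallest p. With a term for the score sets 0 of the 22 were called, and 0 had an unadjusted p under 0.05. At equal score 2 of the 22 were lower in KPY-Setd2KO (2.58% of all genes) and 0 higher (3.34%). These were the replication licensing genes Mcm2 (52.6 ± 10.1 CPM against 33.8 ± 6.33 CPM, -0.61 ± 0.14, adjusted p = 0.0277) and Cdt1 (23.8 ± 6.70 CPM against 15.8 ± 4.85 CPM, -0.66 ± 0.16, adjusted p = 0.0304). Both calls were lost with the replicate block, under which edgeR called 0 genes and 3722 had an unadjusted p under 0.05. Below the gap 4 of the 22 were called lower in KPY-Setd2KO (3.75% of all genes). An unadjusted p under 0.05 was found there for 12 of the 22 and for 4692 of the 16836 genes. The called genes included Mcm2 (-0.81 ± 0.20, adjusted p = 0.0308) and, named after their values were seen, Cdc25a (-0.65 ± 0.16, adjusted p = 0.0274) and Ccna2 (-0.71 ± 0.19, adjusted p = 0.0387). Above the gap 0 were called, and 2 had an unadjusted p under 0.05, as did 2616 of all genes. The median of the 22 was -0.27 at equal score, -0.44 below the gap and -0.07 above it, where that of all genes was -0.01, 0.05 and -0.05.

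Likeness to Rb1 was measured as Pearson's r of log2 CPM over the 14 tumors. It was ranked among 13848 tested genes with an official symbol, without those starting with Gm and a digit or ending in Rik. Because the tumors lie on 2 sides of a gap, such r values depend on which side a gene is higher on, and no p is given. The 5 genes most like Rb1 were Tmed5 (0.987), the GTPase Rac1 (0.987), Prelid3b (0.986), Svbp (0.986) and Rgs2 (0.985), and the 5 least like it were Slc25a37, Champ1 (both -0.982), Celf4 (-0.979), Zbtb37 (-0.977) and Exoc8 (-0.976). Of the members, E2f1 (0.947), Rbl1 (0.891) and Ccnd2 (0.866) were near Rb1, and Ccnd1 (-0.876), Cdk4 (-0.705) and E2f3 (-0.623) were opposite. Ccnd3 (0.464), Cdk6 (0.215) and Rbl2 (0.070) lay between. Ptprc had an r of 0.941 and ranked 412th, and Csf1r an r of 0.926 and ranked 733rd, so many genes outside the leukocyte list followed Rb1 more closely than either.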

How the data were processed

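RNA-seq estimated counts of 14 tumors were deposited by the authors as 1 table, made with Salmon 0.8.2 on GRCm38.p5 per the labels' processing notes, and were used as whole numbers. Sample titles gave genotype and replicate, which the column names match. The 8 largest values (3 genes, no member) were written with 3 digits. Identifiers were matched to GENCODE vM21 symbols (52403 of 52550 matched). Genes were filtered with filterByExpr, scaled by TMM and tested with edgeR 4.0.16 (quasi-likelihood, robust, all 14 tumors), calling an adjusted p under 0.05 over 16836 genes, after tests on simulated data. Log2 CPM used a prior count of 2. No replicate pair was a duplicate library by the chi-square per degree of freedom of their counts. The closest pair was KPY-Ctrl replicates 4 and 5 (21.2), and the next closest was KPY-Setd2KO replicates 7 and 8 (69.3). Named genes were the members, Setd2, Ptprc and Csf1r, in each list the 2 genes with the smallest p by genotype and by score slope, and the 5 genes most and least like Rb1. Members and lists were chosen with earlier results of these data known. Alternatives were DESeq2 1.42.0, other scaling, filters, scores and the replicate block, leaving out each tumor, and, added after seeing the data, fits by score set and the interaction. The library protocol differs between labels and methods. An allele of the mouse model and 1 gene of a list are not reported here.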

Additional observations from a re-analysis of the deposited data

Results flagged for a closer look

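Of 20 groups of log2 CPM values examined (10 members in 2 genotypes), 1 held a tumor far from the others. Cdk6 in KPY-Ctrl replicate 3 had 3.48 log2 CPM, where the remaining 5 tumors of its genotype ran from 4.71 to 5.18, a gap of 0.727 of the whole range. Chance flags about 1 in 20 such groups. The tumor had the lowest leukocyte score of the KPY-Ctrl group, 4.22.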

How the results depend on the processing

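The count of genes by genotype was 0 by edgeR and 770 by DESeq2, and 0 to 1 when 1 tumor was left out (1 without KPY-Ctrl replicate 6). The slope count of 9652 became 218 with a log2 value over 1 also required, 4917 with the replicate block, 401 with a term for the score sets, and 8940 to 9937 when 1 tumor was left out. The equal-score genotype count of 996 became 398 with the log2 threshold, 1650 on library size only (432 higher, against 562 of 996), 624 with no filter, 0 with the replicate block (3722 at an unadjusted p under 0.05), 2329 with DESeq2 and 1 among tumors above the gap, and a range of 194 (KPY-Ctrl replicate 4 left out) to 1375 (KPY-Setd2KO replicate 1 left out) with 13 tumors, with 575, 275, 543 and 339 without KPY-Ctrl replicates 2 and 5 and KPY-Setd2KO replicates 4 and 6. Library size only moved the median genotype difference of all genes to -0.11.

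Reversals were in members that were not called, apart from the slope of E2f1 with a term for the score sets. The slope of Rb1, which is given without a p, also reversed with that term. By genotype they were E2f1 (-0.11 on library size only, -0.012 with no filter) and, with the replicate block, Rbl1 (0.11), Rbl2 (0.046) and Ccnd1 (-0.28). At equal score they were Ccnd1 on library size only (-0.056), with the replicate block Rbl2 (0.079), E2f1 (0.050) and Ccnd1 (-0.010), with a set term E2f1 (0.058), below the gap E2f1 (0.051) and Ccnd3 (0.061), and above it Rbl1 (0.15), Rbl2 (0.19), E2f1 (0.010), Ccnd1 (-0.46), Ccnd2 (0.54) and Cdk6 (-0.061). For the slope they were Rb1 (-0.0097) and E2f1 (-0.086) with a set term and Rbl2 (0.060) and Cdk6 (0.047) per unit fall of an epithelial score.

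When 1 tumor was left out the sign turned for Ccnd1 (-0.0029 to 0.25), Ccnd3 (-0.15 to 0.027) and Rbl2 (-0.13 to 0.033) at equal score, for Ccnd3 (-0.11 to 0.11), E2f1 (-0.20 to 0.33), Rbl1 (-0.17 to 0.17) and Rbl2 (-0.13 to 0.020) by genotype, and for Cdk6 (-0.093 to 0.016) and Rbl2 (-0.024 to 0.0094) in the slope. Slope calls were lost for Ccnd3 with the replicate block, the epithelial score, library size only, no filter, and a minimum of 10 counts per tumor, for Cdk4 with the replicate block (adjusted p = 0.243) and for E2f3 with the epithelial score (adjusted p = 0.0585). The cause was not tested. Replicate numbers did not pair the tumors (correlations of same-numbered deviations from -0.66 to 0.66). The longest transcript in place of the union of exons moved the level of Rbl2 to 5.32, Ccnd3 to 14.2 and Cdk4 to 60.0 CPM per kilobase, and only 2 of the 5 genes most like Rb1 stayed when deviations from each genotype mean were used.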
